A study of Rattus norvegicus with 33 samples.

Results

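The genes described here are 7 members of the prolactin signalling pathway and of the milk protein locus, measured in rat prostate. They are the prolactin receptor Prlr, the transcription factors Stat5a and Stat5b, the feedback inhibitors Cish and Socs2, the milk protein gene Csn2 (beta-casein) and its neighbour Stath (statherin, a calcium-binding secretory peptide best known from saliva). Members were taken by gene name from the probes of the array. All 7 were found, with 2 probes for Prlr and 1 for each other gene, and all 7 were among 23340 genes tested. Where a gene had several probes, the brightest stood for it.

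The samples were prostate RNA from male Sprague-Dawley rats, on 33 single-colour Agilent arrays, 1 per sample. As pups the animals were injected with estradiol benzoate (EB), an estrogen ester, at 2.5 mg/kg on postnatal days (PND) 1, 3 and 5, or with vehicle. From PND 90 they carried silastic implants that were empty or held testosterone with estradiol (T+E). The PND 30 groups, taken before any implant, were control (vehicle, n = 4) and EB (n = 4). The PND 100 groups, 10 days after implantation, were control (vehicle and empty implants, n = 3), EB (EB and empty implants, n = 3), T+E (vehicle and hormone implants, n = 3) and EB+T+E (EB and hormone implants, n = 3). The PND 145 groups, 55 days after implantation, had the same treatments, with n = 3 except EB with n = 4. The sample labels call the tissue whole prostate while the series title speaks of dorsolateral prostate, so the lobes are uncertain. The labels put 3 to 4 litters behind each group without tying arrays to litters, so every p-value reflects only how far these arrays spread.

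A level is the log2 signal of a probe relative to the 75th percentile of its array, and it is compared between arrays, never between genes. A probe was called well above background by the scanner software. Arrays had 61.5% to 68.9% of 58717 spots well above background, 0 saturated spots and correlations of 0.864 to 0.986 within groups. All 10 prostate epithelium markers examined, among them Hoxb13 and Pbsn, were well above background on all 33 arrays. The mean level of 7 measured seminal vesicle genes ran from -3.10 to 3.58 in the PND 100 controls and from -1.03 to 3.79 in the PND 145 controls, so single control arrays stood apart there. Differences are from limma over all 33 arrays, with the standard error (SE) of that fit, and a gene is called changed at a Benjamini-Hochberg adjusted p under 0.05 over all genes tested.

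Prolactin is a pituitary hormone whose release in rats is raised by estradiol. Its receptor activates the kinase JAK2, which phosphorylates STAT5, and STAT5 dimers enter the nucleus and bind palindromic sites with the letters TTCNNNGAA. Beta-casein is the classic STAT5 target of the mammary gland, and Cish and Socs2 are targets that feed back on the receptor. In the prostate prolactin is known as a growth factor for the epithelium that acts beside androgens.

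Csn2 and Stath are adjacent genes in the casein cluster of rat chromosome 14. In the RefSeq gene order the neighbours run Csn1s2a, Stath, Csn2, Csn1s1, with Stath on the minus strand and Csn2 on the plus strand. The array probes lie at chr14:21853342-21853401 (Csn2) and chr14:21832775-21832834 (Stath) of build rn4, 20.5 kb apart. Upstream windows were available from RefSeq (build GRCr8, 250 bases before to 50 after each start) for 6 of the 7 genes, all but Socs2. The letters TTCNNNGAA, which read alike on both strands, occurred in 8.87% of 33469 such windows, and the form with 1 more spacer base, TTCNNNNGAA, in 7.28%. The stretches below are those of Csn2, Stath at the same distance from its start, and Cish, shown because the first and the last hold such letters and Stath does not. Capitals mark matches to either form, 5′ to 3′ on the strand of the gene.

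Csn2: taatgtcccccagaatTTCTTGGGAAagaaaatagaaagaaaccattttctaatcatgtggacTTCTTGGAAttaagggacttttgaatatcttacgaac

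Stath: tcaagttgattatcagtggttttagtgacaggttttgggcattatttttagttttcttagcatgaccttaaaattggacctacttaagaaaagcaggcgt

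Cish: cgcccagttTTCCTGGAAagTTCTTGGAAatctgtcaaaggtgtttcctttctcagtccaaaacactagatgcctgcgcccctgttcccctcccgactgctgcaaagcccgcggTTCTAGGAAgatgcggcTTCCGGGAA

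The Csn2 stretch, chr14:20601664-20601763 on the plus strand of GRCr8, covers bases 160 to 61 before the start. It holds TTCTTGGAA from base 97 to base 89 before the start and the longer form TTCTTGGGAA from base 144 to base 135. The Stath stretch, chr14:20590482-20590581 on the minus strand, covers the same distances, and its whole window held 0 matches to either form. The Cish stretch, chr8:116850719-116850858 on the plus strand, covers bases 250 to 111 before the start and holds 4 matches to TTCNNNGAA, a number reached in 2 of all 33469 windows (0.00598%). The windows of Stat5a and Stat5b held 0 matches. Of the 2 Prlr windows, 1 held TTCTAGGAA from base 176 to base 168 before the start, and also the longer form TTCTAGGGAA past the start. A match says only that the letters are there.

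Csn2 was higher with the T+E implants in rats given vehicle as pups, and near background with the same implants in most rats given EB as pups. At PND 30, before any implant, it was -9.55 to -9.39 in the controls and -9.96 to -9.20 with EB, with 0 of 8 arrays well above background. In the control arrays its level was -9.12, -9.23 and -8.99 at PND 100, and -9.12, -9.09 and -8.84 at PND 145. None of those 6 arrays was well above background. With T+E it was -5.81, -5.31 and -3.89 at PND 100, and -2.49, -4.34 and 1.40 at PND 145, and all 6 arrays were well above background. The groups did not overlap at either age, as was the case for 10.4% of all genes in that direction at PND 100 and 9.11% at PND 145. The PND 145 values spread widely, with an SD of 2.93 around a mean of -1.81 (n = 3).

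At PND 145 Csn2 was the only member called between T+E and control, where 0.287% of all genes were called higher. The fitted difference was 7.21 with an SE of 0.93 (limma adjusted p = 5.67e-05). Each Csn2 SE and interval given here rests on 1 spread shared by all 10 groups, most of them near background. At PND 145 the SD was 0.15 in the controls and 2.93 with T+E, so the SE reflects less spread than the T+E arrays showed. No control array was above background, so the fold between group means, at least 40.7-fold, is a lower bound on the control side only. It is set against the lowest signal well above background on each control array. The T+E mean in it rests on 3 arrays that ran from -4.34 to 1.40. At PND 100, 0 of 7 members were called between T+E and control, against 0.193% of all genes, and 2 had an unadjusted p under 0.05. Csn2 there was at least 4.65-fold higher by group means, with a fitted difference of 4.11 and an SE of 0.93 (limma adjusted p = 0.0569). Within the 3 slides that held both groups, the Csn2 difference was 3.18 to 5.34 at PND 100 and 4.74 to 10.2 at PND 145. Between T+E at PND 145 and at PND 100, the Csn2 difference was 3.19 with an SE of 0.93, and it did not pass (limma adjusted p = 0.198). With 0 of 7 members called between the T+E groups, the background was 0.0428%.

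Of 12 marker lists for prostate, neighbouring tissues and immune cells, 11 had 0 genes called between T+E and control at PND 145, where 0.381% of all genes were. In lists this short 0 is at the background. In the spermatid list 4 of 5 genes were lower, with a mean of -4.94 to 2.63 in those controls and -8.30 to -7.11 with T+E. Other list means did not overlap either. With T+E the seminal vesicle mean (-3.39 to -2.37, controls -1.03 to 3.79) and ventral prostate mean (0.64 to 2.11, controls 2.90 to 6.01) were lower. The myeloid mean (-2.02 to -0.93, controls -3.12 to -2.55) and B cell mean (-8.75 to -8.41, controls -9.19 to -8.84) were higher. The part of these in the Csn2 difference was not tested. With normexp background correction the difference shrank to 3.56 at PND 145 (limma adjusted p = 0.00266) and to 1.14 at PND 100 (limma adjusted p = 0.929), and with only the groups compared in the fit the PND 145 difference was no longer called (limma adjusted p = 0.148). Csn2 was well above background on 8 of 33 arrays, 6 of them in the T+E groups, so it entered the test through the groups in which it was high.

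In rats that had received EB as pups, Csn2 was near background with empty implants and on most arrays with T+E implants. EB with empty implants gave -9.32, -9.35 and -9.56 at PND 100 and -8.07, -7.32, -8.96 and -9.49 at PND 145, with 0 arrays well above background. EB+T+E gave -9.36, -9.14 and -6.13 at PND 100, where only replicate 3 was well above background. At PND 145 it gave -8.49, -6.95 and -9.26, where only replicate 2 was. EB+T+E minus EB was 1.20 at PND 100 (95% interval -0.71 to 3.10) and 0.23 at PND 145 (-1.55 to 2.01). Neither was called, and at both ages 0 of 7 members were, against 1.71% and 22.9% of all genes.

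The difference between the implant effects was tested directly. At PND 145 the EB by T+E interaction for Csn2 was -6.98 with an SE of 1.27 (limma adjusted p = 0.00854), the only member called in a contrast where 0.133% of genes were called lower. Each of the 13 arrays of this contrast could be left out without losing the call, and the value then ran from -8.25 to -5.37. With only the groups compared in the fit it missed the threshold (limma adjusted p = 0.0535), and normexp correction moved it to -3.79 (limma adjusted p = 0.0275). The control and EB groups in this contrast are at background, and only 1 of 3 EB+T+E arrays is above it, so the fitted size is no bound. Csn2 entered the test mostly through the T+E groups, so the call largely restates its high level with T+E alone. At PND 100 the interaction was -2.91 with an SE of 1.31 and did not pass (limma adjusted p = 0.537). No gene of the table passed there (background 0%), and 1 member had an unadjusted p under 0.05.

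Set against T+E alone, EB+T+E had lower Csn2 at both ages. The difference at PND 145 was -6.42 with an SE of 0.93 (limma adjusted p = 5.79e-05), and at PND 100 it was -3.21 with an SE of 0.93 (limma adjusted p = 0.0474). The groups did not overlap at either age, as held for 7.03% of all genes in that direction at PND 100 and 23.7% at PND 145. Only 1 of 3 EB+T+E arrays was well above background at each age, so the fitted sizes depend on values near background and are no bounds. The PND 145 call was kept without any 1 array, at -7.69 to -4.82, and within 2 slides that held both groups the difference was -2.61 and -10.7. The PND 100 call was lost when any array but EB+T+E replicate 3 was left out. The adjusted p was then 0.358 without EB+T+E replicate 1, 0.113 without EB+T+E replicate 2, and 0.122, 0.0965 and 0.158 without T+E replicates 1, 2 and 3 (limma). With normexp correction the PND 100 difference was -0.96 (limma adjusted p = 0.449).

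**Figure D1:**
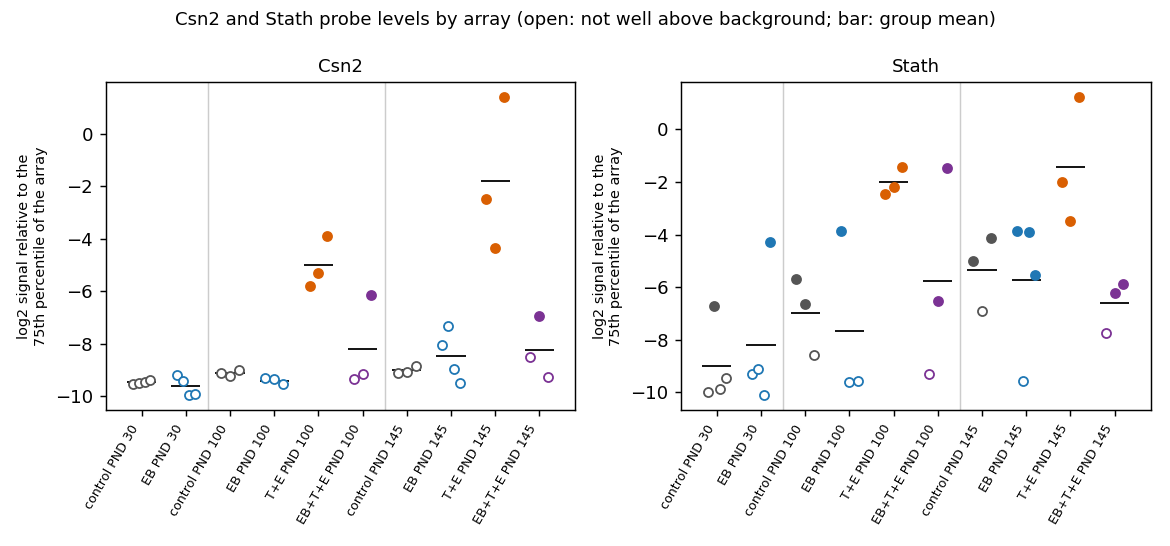
Levels of Csn2 (left) and Stath (right) in the 10 groups, as log2 signal relative to the 75th percentile of the array. Each point is 1 array, filled where well above background and open where not, and the bar is the group mean. All 6 T+E arrays of Csn2 are filled, from -5.81 to 1.40, and all control and EB arrays of Csn2 are open.

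Stath, the next gene of the cluster, was also highest on average with T+E alone, and outside those groups it was well above background on more arrays than Csn2. In the T+E groups it was -2.46, -2.18 and -1.42 at PND 100 and -1.99, -3.49 and 1.22 at PND 145. The controls gave -5.68, -6.65 and -8.57 at PND 100 and -4.99, -6.89 and -4.12 at PND 145. No control array reached the T+E arrays at either age. T+E minus control was 4.95 with an SE of 1.79 at PND 100 (limma adjusted p = 0.337) and 3.92 with an SE of 1.79 at PND 145 (limma adjusted p = 0.453). Neither passed the test over all genes. Arrays that were higher in T+E without overlap were common among all genes, as given for Csn2. Among the 7 members this held for 3 at PND 100 (Prlr, Csn2 and Stath) and 2 at PND 145 (Csn2 and Stath). Lower without overlap were Cish at PND 100, and Prlr and Stat5b at PND 145, where 12.7% of all genes were. None of these lower differences was called. Within slides the Stath difference was 3.51 to 6.11 at PND 100 and 3.00 to 5.34 at PND 145. With only the groups compared, the PND 100 difference was called (limma adjusted p = 0.0368).

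With EB+T+E, Stath was -9.30, -6.54 and -1.46 at PND 100, a wide spread within 1 group, and -7.74, -6.21 and -5.89 at PND 145. At PND 145 it was lower with EB+T+E than with T+E by a difference of -5.20 with an SE of 1.79 (limma adjusted p = 0.0386), and the arrays did not overlap. That call was lost without T+E replicate 1 (adjusted p = 0.0734), T+E replicate 3 (0.218), EB+T+E replicate 1 (0.142) or EB+T+E replicate 2 (0.0813), all by limma. At PND 100 the same comparison gave -3.75 with an SE of 1.79 (limma adjusted p = 0.22), and without EB+T+E replicate 3 it gave -5.90 (limma adjusted p = 0.0201). The Stath interaction was -4.81 with an SE of 2.45 at PND 145 and did not pass (limma adjusted p = 0.393).

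Outside the T+E groups Stath was well above background on several arrays where Csn2 was not. Among them were 2 of 3 controls at PND 100, 2 of 3 at PND 145 and 3 of 4 EB arrays at PND 145. Other groups held single such arrays of Stath. It was -3.85 in EB replicate 1 of PND 100, beside -9.61 and -9.56 in the other arrays of that group. EB at PND 145 gave -3.86, -9.58, -3.92 and -5.54. At PND 30 it was near background on 3 of 4 arrays in each group, from -9.99 to -9.47 in the controls and from -10.10 to -9.11 with EB, with 1 array at -6.72 in the controls and 1 at -4.29 with EB.

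Across the 33 arrays Csn2 and Stath had a Pearson r of 0.73. With group means taken out it was 0.37, but Csn2 was near background on most arrays, so that value says little about likeness within groups. These arrays share their groups and slides, and both figures are descriptions. Of the 7 members, Stath was most like Prlr within groups, with an r of 0.73 after group means were taken out. That likeness was 0.32 over all arrays.

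**Figure D2:**
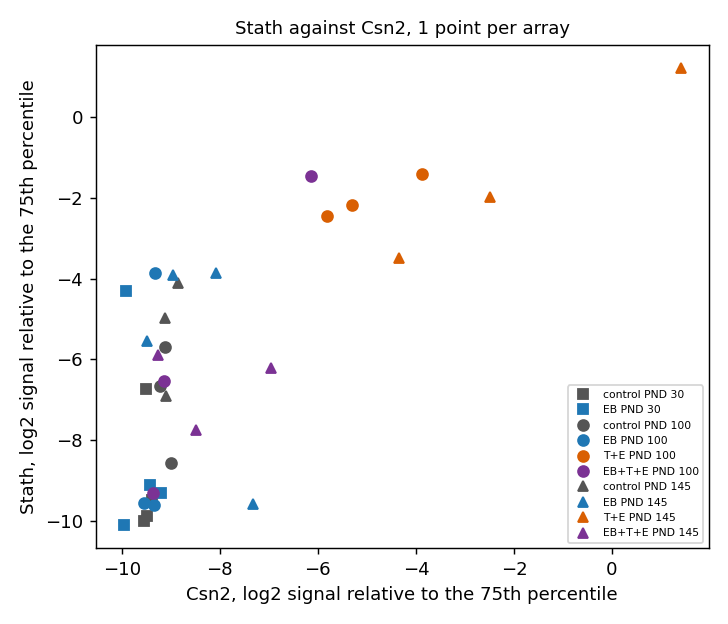
Stath against Csn2, both as log2 signal relative to the 75th percentile, 1 point per array, with colour for the treatment and shape for the age. The 6 T+E arrays lie at the upper right, with 1 at 1.40 for Csn2 and 1.22 for Stath, and on the arrays where Csn2 was not well above background Stath ranges from -10.10 to -3.85.

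No other measured milk or casein cluster gene was called with T+E. Of 18 milk and mammary secretory genes examined, all on the array, 13 were measured on at least 3 arrays. Between T+E and control 0 of these 13 were called at PND 100 and 0 at PND 145, with median differences of -0.02 and 0.28 beside -0.04 and -0.04 for all genes. The milk genes Lalba and Ltf were well above background on 0 arrays, Csn3 on 1, and Csn1s2a and Csn1s2b on 2 each. Csn1s1, the other neighbour of Csn2, was well above background on 4 arrays. It had a mean of -6.88 with T+E at PND 100, where 2 of 3 arrays were well above background, and of -8.06 with T+E at PND 145, where 0 of 3 were. Of 19 further genes around the cluster, 16 were on the array and 9 were measured, and 0 of the 9 were called between T+E and control at either age. Over all genes 0.193% were called at PND 100 and 0.381% at PND 145, so counts of 0 in lists of this size are at the background.

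Prlr, the prolactin receptor, was higher than in all controls with T+E at PND 100 and lower than in all controls with T+E at PND 145, but neither difference passed the test, and 12.7% of all genes were without overlap in the lower direction at PND 145. Its brighter probe lies at chr2:59677666-59678170 of rn4 and gave -1.08, -0.17 and 0.18 with T+E at PND 100, beside -2.36, -2.45 and -2.17 in the controls. At PND 145 it gave -2.87, -3.31 and -3.07 with T+E, beside -2.25, -2.48 and -0.57. T+E minus control was 1.97 with an SE of 1.20 at PND 100 (limma adjusted p = 0.759) and -1.32 with an SE of 1.20 at PND 145 (limma adjusted p = 0.82). The 95% intervals, -0.50 to 4.44 and -3.78 to 1.15, include 0. The difference between these effects was -3.29 with an SE of 1.70 (unadjusted p = 0.0635, limma adjusted p = 1.00). With only the groups compared, the PND 100 difference was called (limma adjusted p = 0.049).

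The other Prlr probe, at chr2:59680669-59680728 of rn4 and listed for another RefSeq transcript of the gene, correlated with the brighter one at r = 0.95 over 33 arrays. It gave -2.36, -1.47 and -1.41 with T+E at PND 100 against -2.75, -2.46 and -2.22 in the controls, which overlap. At PND 145 it gave -3.47, -4.33 and -3.61 against -2.36, -2.65 and -1.53. By this probe T+E minus control was 0.73 with an SE of 1.12 at PND 100 (limma adjusted p = 0.992) and -1.62 with an SE of 1.12 at PND 145 (limma adjusted p = 0.728).

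The products of the ventral prostate lobe varied in part alongside Prlr. The mean level of 4 ventral genes (Scgb1d2, Scgb2a1, Scgb1d4 and Sbp, all measured) ran from 5.67 to 6.08 with T+E at PND 100 and from 0.64 to 2.11 with T+E at PND 145. In the controls it ran from -0.30 to 5.34 at PND 100 and from 2.90 to 6.01 at PND 145. With T+E this mean thus lay above all controls at PND 100 and below all at PND 145, as Prlr did by its brighter probe. None of the 4 genes was called between T+E and control at either age. Over 33 arrays Prlr correlated with the ventral mean at r = 0.61. With EB+T+E at PND 100 the ventral mean ran from 4.82 to 6.58 and Prlr from -5.71 to 1.44. In the PND 100 controls Prlr stayed between -2.45 and -2.17. The part of the ventral genes in the Prlr values was not tested. In RNA of whole tissue, fewer cells of a type and less RNA per cell cannot be told apart.

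Among EB-treated animals Prlr spread widely within groups. It was -0.0009, -2.11 and -4.27 with EB at PND 100, and -5.71, -3.45 and 1.44 with EB+T+E at PND 100, the lowest and the highest value of the series in 1 group. EB at PND 145 gave 0.59, -1.90, -0.09 and -0.91, and EB+T+E at PND 145 gave -4.58, -3.11 and -0.18. The PND 30 arrays ran from -1.89 to 0.09 in the controls and from -1.32 to 0.33 with EB. When the 10 groups were ordered by their Prlr mean, from -0.36 with T+E at PND 100 down to -3.08 with T+E at PND 145, 0 of 9 pairs of neighbours differed by more than the larger of their SDs.

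Stat5a and Stat5b, neighbouring genes on chromosome 10, were called lower than in controls in rats that received EB and the implants. Stat5a was 4.58, 4.58 and 4.40 in the PND 100 controls and 2.21, 3.76 and 1.16 with EB+T+E. At PND 145 it was 4.64, 5.12 and 4.49 in the controls and 2.32, 2.64 and 2.42 with EB+T+E. All EB+T+E arrays lay below all controls at both ages, as they did for 14.9% of all genes at PND 100 and 31.8% at PND 145. The fold was 4.41-fold lower at PND 100, a difference of -2.14 with an SE of 0.48 (limma adjusted p = 0.00523), and 4.88-fold lower at PND 145, a difference of -2.29 with an SE of 0.48 (limma adjusted p = 7.32e-04). Both calls held without any 1 array. With only the groups compared, the PND 100 call was lost (limma adjusted p = 0.207), and with array weights that difference was -1.18 (limma adjusted p = 0.0238).

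Stat5b followed the same course at smaller size. It was -1.68, -1.41 and -1.25 in the PND 100 controls and -2.69, -2.17 and -3.05 with EB+T+E. In the PND 145 controls it was -1.01, -0.72 and -1.23, and with EB+T+E -3.03, -2.70 and -2.98. The differences were -1.19 with an SE of 0.36 (limma adjusted p = 0.0288) and -1.92 with an SE of 0.36 (limma adjusted p = 2.41e-04), that is 2.28-fold and 3.78-fold lower. The PND 145 call held without any 1 array. The PND 100 call was lost without control replicate 1 (adjusted p = 0.0551), 2 (0.0772) or 3 (0.0961) or without EB+T+E replicate 1 (0.111) or 3 (0.0677), all by limma.

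These were the 2 members called between EB+T+E and control at each age, where 7.2% of all genes were called lower at PND 100 and 20.6% at PND 145. At PND 145 the members' share thus lay near that of all genes. Between EB+T+E and T+E at PND 145, 4 members were lower (Stat5a, Stat5b, Csn2 and Stath), where 11.7% of all genes were called lower. At PND 100 only Csn2 was, where 1.35% were. Stat5a there was -1.97 with an SE of 0.48 at PND 145 (limma adjusted p = 0.00438) and -1.35 with an SE of 0.48 at PND 100 (limma adjusted p = 0.102). Without EB+T+E replicate 2 the PND 100 value was -2.04 (limma adjusted p = 0.00778). That fit kept EB+T+E replicate 3, which at 1.16 had the lowest Stat5a of the series. Stat5b fell by 1.00 on the log2 scale with an SE of 0.36 at PND 145 (limma adjusted p = 0.0462), which was kept without T+E replicate 2 and lost without any other 1 of the 6 arrays (limma adjusted p from 0.0733 to 0.213). That call was also lost with normexp correction, no filter, slide as a block, only the groups compared or a plain variance prior (limma adjusted p from 0.0507 to 0.0818). At PND 100 Stat5b was -0.61 with an SE of 0.36 (limma adjusted p = 0.314).

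Epithelial and immune markers moved with the STAT5 genes. Between EB+T+E and control, 6 of 10 prostate epithelium markers fell at PND 100 and 5 of 10 at PND 145. The mean level of the 10 ran from 1.00 to 3.44 and from 2.26 to 2.96 with EB+T+E, beside 3.81 to 3.95 and 3.73 to 3.90 in the controls. All 8 T and NK cell markers, all 4 B cell markers and all 6 myeloid markers rose at PND 145, when the T and NK mean ran from -2.08 to -0.13 with EB+T+E, from -5.49 to -4.14 with T+E and from -6.11 to -4.93 in the controls. Over 33 arrays Stat5a correlated with the epithelial mean at r = 0.73. At PND 100 all 6 myeloid markers and 3 of 8 T and NK markers rose. Of 7 measured seminal vesicle genes 4 fell at PND 100 and 2 at PND 145, and all 5 spermatid genes fell at PND 145. Stat5b correlated at r = 0.64 with the epithelial mean and at r = 0.68 with the seminal vesicle mean, and for Stat5a the latter was 0.58. The part of these cells and tissues in the STAT5 values was not tested.

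EB without implants gave lower STAT5 values that did not pass the test. At PND 30 Stat5a was 3.34, 2.75, 2.53 and 1.46 with EB, all below the controls at 3.79, 4.17, 4.00 and 4.31, a difference of -1.54 with an SE of 0.41 (limma adjusted p = 0.139). Stat5b was -2.14, -2.37, -3.40 and -3.30 with EB, below the controls at -1.49, -1.78, -1.45 and -1.38, a difference of -1.28 with an SE of 0.31 (limma adjusted p = 0.106). In that comparison 0 of 7 members were called, as were 0.0471% of genes, and 3 members had an unadjusted p under 0.05. Without EB replicate 1, Stat5a (limma adjusted p = 0.026) and Stat5b (limma adjusted p = 0.015) were called. At PND 100 the EB difference was -0.91 for Stat5a (limma adjusted p = 0.258) and -1.20 for Stat5b (limma adjusted p = 0.0611), with 0 members called against 2.69% of genes. Without EB replicate 2, Stat5b was called there at -1.47 (limma adjusted p = 0.0487). At PND 145 it was -1.26 for Stat5a (limma adjusted p = 0.18) and -1.25 for Stat5b (limma adjusted p = 0.0822), with 0 members called against 0.57%. All EB arrays lay below all control arrays for both genes at each age. For arrays without overlap and lower with EB the background was 7.09% at PND 30, 15.3% at PND 100 and 10.3% at PND 145. Set against EB alone, EB+T+E was called for neither gene. Stat5a was -1.23 at PND 100 (limma adjusted p = 0.19) and -1.03 at PND 145 (limma adjusted p = 0.0937). Stat5b was 0.01 (limma adjusted p = 0.996) and -0.66 (limma adjusted p = 0.149). Neither gene passed in the EB by T+E interaction at either age (limma adjusted p from 0.685 to 0.899).

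With T+E alone neither STAT5 gene was called against the controls at either age. Stat5a was 4.42, 3.78 and 2.98 with T+E at PND 100 and 4.53, 3.97 and 4.79 at PND 145, overlapping the controls at both ages. T+E minus control was -0.79 (95% interval -1.77 to 0.19) and -0.32 (-1.30 to 0.66). Stat5b was -1.61, -1.75 and -2.71 at PND 100, overlapping the controls, and -1.70, -2.52 and -1.50 at PND 145, all below the controls. T+E minus control was -0.58 (-1.31 to 0.16) and -0.92 (-1.65 to -0.18), and the latter had an unadjusted p of 0.0162 and a limma adjusted p of 0.34. Over 33 arrays Stat5a and Stat5b correlated at r = 0.88, and at 0.80 with group means taken out.

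Cish, a feedback inhibitor whose transcription is switched on by STAT5, was called in 0 of 19 comparisons. In the T+E groups it was -3.02, -2.75 and -2.89 at PND 100 and -2.81, -2.63 and -2.65 at PND 145, and the controls gave -2.58, -1.71 and -2.41 and then -1.95, -0.93 and -2.86. T+E minus control was -0.66 (95% interval -1.74 to 0.42) at PND 100 and -0.78 (-1.86 to 0.30) at PND 145. STAT5 activity itself was not tested. With EB+T+E Cish was -3.73, -2.27 and -5.29 at PND 100 and -3.70, -3.22 and -2.77 at PND 145. EB+T+E minus control was -1.53 with an SE of 0.53 (limma adjusted p = 0.0545) and -1.32 with an SE of 0.53 (limma adjusted p = 0.0527), both just outside the threshold. Without EB+T+E replicate 2 the PND 100 value was -2.28 (limma adjusted p = 0.00336). That fit kept EB+T+E replicate 3, which at -5.29 had the lowest Cish of the series. At PND 145 the value was -1.79 without control replicate 3 (limma adjusted p = 0.02) and -1.55 without EB+T+E replicate 3 (limma adjusted p = 0.0426). With quantile scaling, normexp correction or array weights the PND 145 difference was called too (limma adjusted p = 0.0411, 0.0468 and 0.0118). With EB alone Cish was -3.56, -3.40 and -3.66 at PND 100 and -3.79, -2.97, -4.37 and -3.33 at PND 145, all below the controls of the same age. Those differences were -1.31 (limma adjusted p = 0.143) and -1.70 (limma adjusted p = 0.106). The PND 145 one was called at -2.18 without control replicate 3 (limma adjusted p = 0.0462). At PND 30 Cish was -2.81, -3.53, -2.79 and -3.15 in the controls and -3.18, -3.95, -4.20 and -4.90 with EB, a difference of -0.99 (limma adjusted p = 0.395). Cish correlated with Stat5a at r = 0.80 over 33 arrays and with Csn2 at r = 0.12.

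Socs2, which restrains growth hormone and prolactin receptors, was likewise called in 0 of 19 comparisons. It was -6.56, -5.67, -6.23 and -5.86 in the PND 30 controls and -4.50, -4.25 and -4.81 in the PND 100 controls, so all adult controls were higher, as was so for 14.3% of genes. The difference was 1.56 with an SE of 0.44 (limma adjusted p = 0.0595). In this comparison of controls by age 0 of 7 members were called, as were 2.24% of genes. With T+E Socs2 was -3.81, -4.68 and -5.75 at PND 100 and -3.84, -4.15 and -4.10 at PND 145. T+E minus control was -0.23 (95% interval -1.20 to 0.74) and 0.57 (-0.40 to 1.54). EB at PND 145 gave -5.50, -5.66, -5.99 and -5.52, all below the controls at -4.98, -4.11 and -4.72, a difference of -1.07 with an SE of 0.44 (limma adjusted p = 0.249). EB at PND 100 gave -4.54, -5.12 and -4.54, and EB at PND 30 gave -6.40, -5.09, -5.44 and -5.76. EB+T+E gave -5.18, -4.58 and -7.05 at PND 100 and -5.14, -5.26 and -4.79 at PND 145. Between EB+T+E and control at PND 100 Socs2 was called without EB+T+E replicate 2, at -1.60 (limma adjusted p = 0.0281). That fit kept EB+T+E replicates 1 (-5.18) and 3 (-7.05). Replicate 3 was the lowest Socs2 array of the series and not well above background, as Socs2 was on 31 of 33 arrays.

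**Figure D3:**
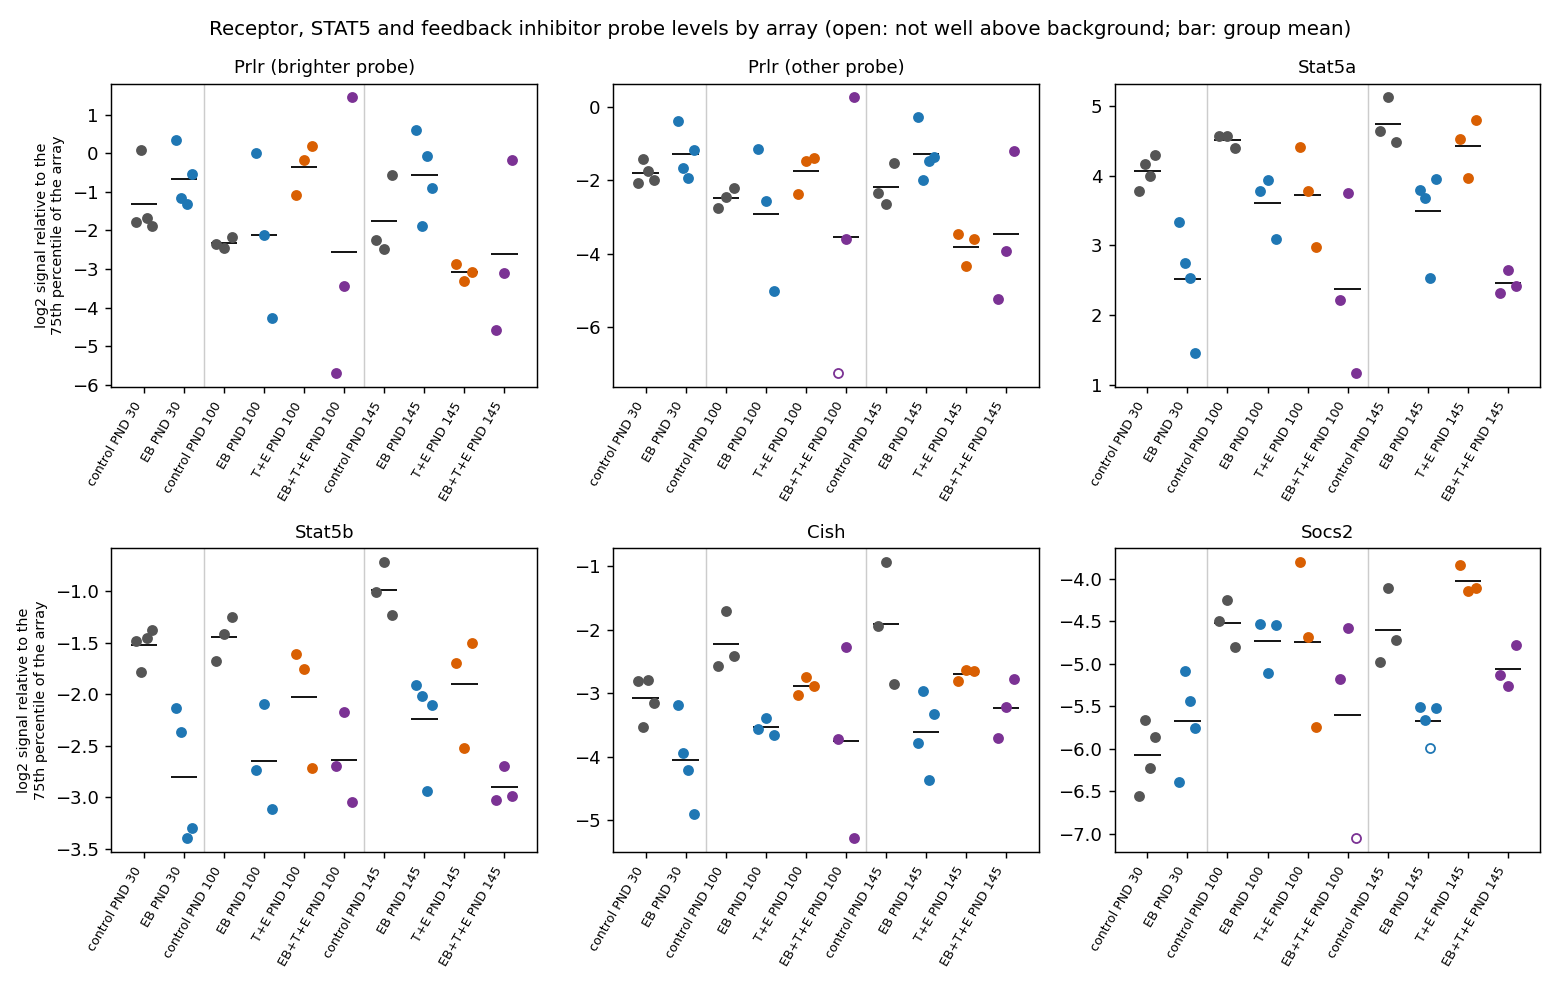
Levels of Prlr by both probes, Stat5a, Stat5b, Cish and Socs2 in the 10 groups, as log2 signal relative to the 75th percentile of the array, 1 point per array, open where not well above background, with the group mean as a bar. Stat5a lies between 1.16 and 3.76 in the 6 EB+T+E arrays of adults and between 4.40 and 5.12 in the 6 adult controls.

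**Figure D4:**
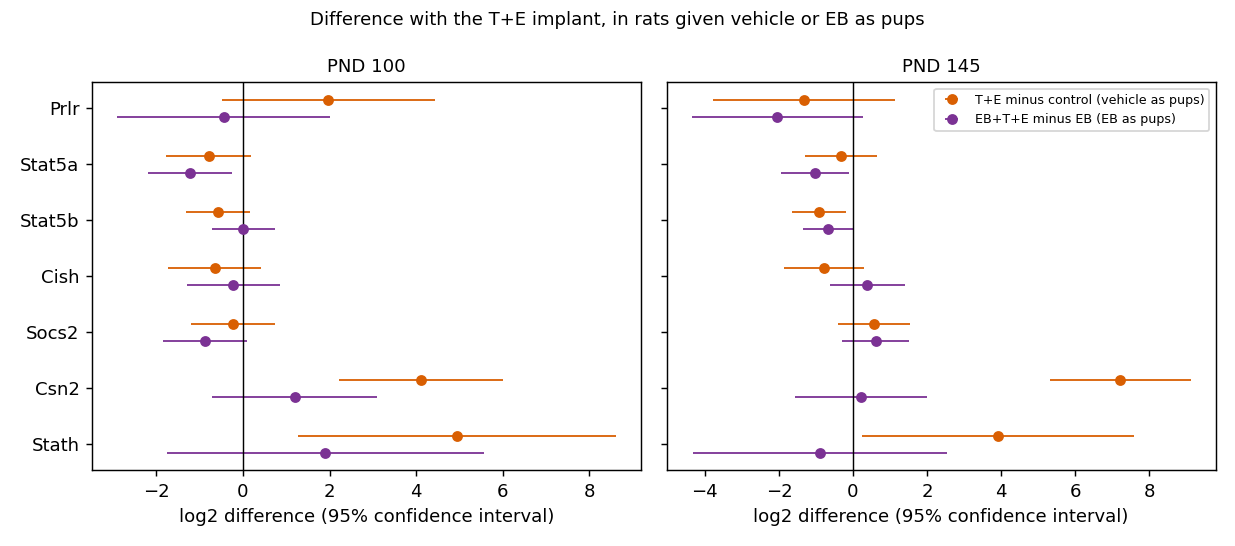
Log2 difference made by the T+E implants for the 7 members, in rats given vehicle as pups (T+E minus control) and in rats given EB as pups (EB+T+E minus EB), at PND 100 (left) and PND 145 (right). Points are limma estimates and bars 95% intervals, which rest on the spread shared by the 10 groups. The intervals of Csn2 in vehicle-treated rats are 2.21 to 6.01 and 5.30 to 9.11.

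By age, no member was called in any remaining comparison. EB at PND 100 against PND 30 called 0 of 7 members against 8.62% of genes, and EB at PND 145 against PND 100 called 0 against 0.746%. EB+T+E at PND 145 set beside PND 100 called 0 against 3.46%. Between the controls of PND 145 and PND 100, 0 members and 0% of genes passed limma's adjusted threshold, and 0 members had an unadjusted p under 0.05.

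The rest of the pathway was read from lists of JAK-STAT components, inhibitors, receptors and target genes. Between T+E and control 0 genes of any list were called at either age, out of 9 JAK-STAT genes, 14 inhibitors and phosphatases, 9 measured ligands and related receptors, 22 prolactin- and STAT5-responsive genes and 4 hormone receptors. With 0.193% and 0.381% of all genes called, these counts are at the background as well. The responsive genes had a median difference of 0.06 at PND 100 and 0.09 at PND 145, beside -0.04 for all genes at both ages. The ligand genes Prl and Gh1 were on the array and well above background on 0 of 33 arrays.

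Between EB+T+E and T+E at PND 145, 9.69% of all genes were called higher and 11.7% lower, and the list counts are read beside those shares. Of the 9 JAK-STAT genes 4 rose and 0 fell, among them Stat2 (1.87), Jak3 (3.79) and Stat4 (2.63), as log2 differences. These act in interferon and lymphocyte cytokine signalling. Of 9 measured receptors and ligands 6 rose, among them the interleukin receptor chains Il2rg (3.92), Il2rb (3.44), Il2ra (3.90) and Il7r (3.25), which mark lymphocytes. Of the 22 responsive genes 4 rose and 3 fell. Elf5, the transcription factor that acts beside STAT5 in milk-secreting cells, fell by 3.44 (limma adjusted p = 1.56e-04), and Hsd17b7 fell by 1.87, while Pim2 rose by 1.13 and Irf1 by 1.91. Of the 14 inhibitors Ptpn6 rose by 1.51 and 0 fell, and of the 13 milk genes Xdh (1.78), Lpo (2.13) and Plin2 (1.64) rose and 0 fell. In the same comparison all 8 T and NK, all 4 B cell and all 6 myeloid markers rose and 4 of 10 epithelial markers fell, and their part in these lists was not tested.

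Elf5 was lower with EB+T+E than in controls at both ages as well, by -3.32 at PND 100 (limma adjusted p = 9.11e-04) and -3.59 at PND 145 (limma adjusted p = 3.38e-05). Its mean was 1.47 and 1.38 in the controls, 0.70 and 1.23 with T+E, and -1.85 and -2.21 with EB+T+E, at PND 100 and PND 145.

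The genes most like each member over the 33 arrays were taken by Pearson r of log2 levels among genes with a symbol. For Csn2 they were Dync2li1 (0.86), Mipep (0.86), Khdrbs2 (0.83), Hgf (0.83) and Akr1b7 (0.81). With group means taken out these fell to between -0.21 and 0.14. Csn2 was well above background on only 8 of 33 arrays, mostly with T+E, so the high r mainly picks genes high with T+E. Its deviations within groups were mostly near background, so the low values cannot show whether the likeness holds within groups. For Stath they were Ahcyl2 (0.90), Omp (0.88), Fpr2l1 (0.88), Eaf2 (0.86) and Stt3b (0.86), and within groups they stayed between 0.80 and 0.88. For Prlr they were Zyg11a (0.91), Rdh7 (0.91), Megf6 (0.91), Gstt3 (0.91) and C2cd4a (0.89), with 0.92 to 0.94 within groups. For Cish they were Sel1l3 (0.88), Ube2q2 (0.85), B4galnt2 (0.83), Nsmf (0.82) and Asb11 (0.82). For Socs2 they were Inf2 (0.89), Tshz3 (0.89), Tgfbr3 (0.88), Dglucy (0.86) and Chst10 (0.85). The arrays share groups and slides, so these values are descriptions.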

How the data were processed

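Total RNA of 33 rat prostates was labelled with Cy3 and hybridised to Agilent 8x60K arrays, per the labels' protocols. Spots were quantified by Feature Extraction, version 12.0.0.7 (protocol GE1_1200_Jun14, array design 074036, grid build rn4), per the file headers. The deposited spot values are background-subtracted intensities on a linear scale, not scaled between arrays, per the file headers. The number of arrays, and for Csn2 its nearness to background, limit the precision.

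From these, each spot's processed signal was divided by the 75th percentile of its array (non-control spots) and put on a log2 scale. Spots the scanner software marked as outliers, 413 to 969 on an array, were dropped, and repeat spots of a probe were averaged. Probes were named through RefSeq accessions, symbols or synonyms (30650 of 45598 probes). Probes well above background on at least 3 arrays were kept, with the brightest per gene, which left 23340 genes. For a fold given as "at least", each array of the dim group took either its own signal or the lowest one well above background, whichever was higher, and the bright group was divided by their mean, both as normalised log2 means. One limma model (version 3.58.1, R 4.3.3) held a mean for each of the 10 groups (trended, robust variance), with Benjamini-Hochberg adjustment in each of 19 comparisons at 0.05.

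Replicate numbers were checked as pairs by correlating deviations from group means. Every pair was over 0.1 in 1 of 17 comparisons, EB+T+E at PND 145 against PND 100 (r from 0.12 to 0.34), where a replicate block called 0 members as well. Alternatives were normexp correction (offset 50), quantile scaling, other filters, slide or replicate number as blocks, only the groups compared, the mean of all probes, the authors' deposited table, array weights, a plain variance prior (no trend, not robust), and each array left out. A fit without the 2 control arrays highest in seminal vesicle genes was chosen after seeing the data. The text names all 7 members, up to 4 called genes of each list in a comparison, and the 5 most like genes of 5 members. The members and gene lists were chosen with earlier results of these data known. Tables were handled in the R package data.table (version 1.17.8) and pandas 2.3.3 (Python 3.11.15), and plots drawn in matplotlib 3.10.9.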

Additional observations from a re-analysis of the deposited data

Results flagged for a closer look

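Among 21 sets of 4 arrays (1 member in 1 group), 3 held an array whose gap to the others was large for the range of the set, where chance alone gives about 1 set in 20. Prlr was 0.0905 in control replicate 2 of PND 30, against -1.89 to -1.67 in the other arrays of that group. Stath was -6.72 in the same array, against -9.99 to -9.47. The ventral prostate mean of that array was 6.21, beside 0.57 to 2.91 in the other PND 30 controls. Stath was -4.29 in EB replicate 4 of PND 30, against -10.10 to -9.11.

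The effect of T+E on Csn2 differed between rats given vehicle and rats given EB as pups at PND 145, with an interaction of -6.98 (limma adjusted p = 0.00854). Csn2 entered the test mostly through the T+E groups, and the control and EB groups are at background, so this largely restates its high level with T+E alone. The T+E minus control difference of Prlr had opposite signs at the 2 ages, and neither passed the test. Every T+E array was above the controls at PND 100 and below them at PND 145 by the brighter of its 2 probes. By the other probe the PND 100 arrays overlapped, with a difference of 0.73 (SE 1.12). The ventral prostate mean with T+E also lay above all controls at PND 100 and below all at PND 145, and its part was not tested. The difference between the ages by the brighter probe, -3.29, did not pass the test (limma adjusted p = 1.00, unadjusted p = 0.0635).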

How the results depend on the processing

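Of 2452 member differences refitted under the alternatives, 0 reversed a called direction, 2368 kept their side of the threshold, 38 lost a call and 46 gained one, and 98 of those called in neither fit changed sign. The counts of members called moved as follows. For EB+T+E versus T+E at PND 100 the count went from 1 to 0 with quantile scaling, normexp correction, no filter, a filter of 17 arrays, the authors' deposited table, only the groups compared or a replicate block, and to 2 with array weights. At PND 145 it went from 4 to 2 with no filter, to 3 with normexp correction, slide as a block, only the groups compared or a plain variance prior (each without Stat5b) and with the filter of 17 arrays (without Csn2), and to 5 with quantile scaling or array weights (Socs2 added). EB+T+E versus control at PND 145 went from 2 to 3 (Cish added) with quantile scaling, normexp correction, array weights or a replicate block. With the filter of 17 arrays, which Csn2 could not pass, T+E versus control and the interaction at PND 145 went to 0. EB+T+E versus control at PND 100 went from 2 to 1 with normexp correction, array weights or 2 controls left out, and to 0 with only the groups compared. With only those groups 0 of all genes were called, in place of 2943. For T+E versus control at PND 145 that setting called 23 of all genes, in place of 89. That setting also gave 3 for T+E versus control at PND 100 (Prlr, Csn2 and Stath), 0 at PND 145, 0 for the interaction at PND 145, 1 for the controls of PND 100 against PND 30 (Socs2) and 1 for T+E of PND 145 against PND 100 (Prlr). Quantile scaling called 1 among the controls of PND 100 against PND 30 (Socs2), slide as a block 1 for EB at PND 100 (Stat5b), and the mean of all probes 1 for T+E at PND 100 (Csn2). Array weights called 3 each for EB at PND 30, for T+E at PND 100 and for EB+T+E versus EB at PND 145, 2 for EB at PND 145, 2 for the controls of PND 100 against PND 30, 1 for EB of PND 100 against PND 30 and 2 for T+E of PND 145 against PND 100. With array weights more genes of the series were called as well. The calls went from 11 to 5122 for EB at PND 30 and from 45 to 1849 for T+E at PND 100. For EB+T+E versus EB at PND 145 they went from 5349 to 10640, and for EB at PND 145 from 133 to 2055. In the same comparisons by age they went from 523 to 4794 (controls), from 2012 to 3942 (EB) and from 10 to 918 (T+E).

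With 1 array left out at a time, the counts ran from 1 to 4 for EB+T+E versus control at PND 100, from 0 to 3 for EB+T+E versus T+E at PND 100 from 2 to 4 for the same groups at PND 145, and from 2 to 3 for EB+T+E versus control at PND 145. They ran from 0 to 2 for EB at PND 30, and from 0 to 1 for EB at PND 100 (without EB replicate 2), EB at PND 145 (without control replicate 3), and EB+T+E versus EB at PND 100 (without EB+T+E replicate 2, Stat5a at -1.92) and PND 145 (without EB replicate 3, Stat5a at -1.35, or EB+T+E replicate 3, Prlr at -3.27). Over all genes the number called moved too. Without EB+T+E replicate 3 of PND 100 it went from 2943 to 5751 against control and from 936 to 5562 against T+E. Without EB+T+E replicate 2 of PND 100 it went from 400 to 1180 against EB. The cause of these moves was not tested. The replicate block ended the Csn2 call for EB+T+E versus T+E at PND 100 (limma adjusted p = 0.0574) and added Cish between EB+T+E and control at PND 100 and PND 145. It changed no other count of members called. Same-numbered arrays correlated at -0.44 to 0.46 in their deviations.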
